A study of Vitis vinifera with 8 samples.

Results

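Stilbene synthase condenses a coumaroyl-CoA starter with malonyl-CoA units to give resveratrol, the parent compound of the grapevine stilbenes. The enzyme shares its substrates with chalcone synthase, which opens the flavonoid pathway. In grapevine the gene has been copied many times in tandem, and stilbene synthases are known to be induced in leaves by pathogens, wounding and ultraviolet light. The members described here are the probes of the 2 tandem runs, 39 with identifiers from VIT_16s0100g00750 to VIT_16s0100g01200 (chromosome 16) and 10 from VIT_10s0042g00840 to VIT_10s0042g00930 (chromosome 10). They were taken by identifier with no filter on their values, and make up 49 of the 34369 probes on the array. The choice of these runs was made with earlier results of these data known. The study's tables name 24 of them as stilbene synthases (VvSTS1 stands beside 2 identifiers), list VIT_10s0042g00900 without a match, and give no name used here for the others, which are called by identifier.

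RNA came from pooled apical leaves of single Vitis vinifera cv Sultana plantlets, grown in vitro and taken 7 days after vacuum infiltration with Agrobacterium tumefaciens strain C58C1. Plants of the OXNAC33 group received 35S:VviNAC33, a construct in which the viral 35S promoter drives the transcription factor gene VviNAC33 with no restriction to a cell type. Plants of the Control group received the empty pK7WG2 vector with a non-coding sequence. Both groups therefore carried Agrobacterium, and expression was transient. Per the labels the plants were 6 weeks old (the lower age in the methods is that at infiltration, 7 days before sampling), and 8 were infiltrated for OXNAC33 and 7 for Control. Of these, 4 plants per group were hybridized to 1 array each, with Cy3 as the only dye. Plants for the OXNAC33 arrays were picked, per the methods, for strong transgene expression in a quantitative PCR assay, and were therefore selected on the gene itself.

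Levels are given as log2 of the processed intensity minus log2 of the 75th percentile of the same array, so a level of 0 is that percentile and a difference of 1 is 2 fold. Levels of different probes are not compared with each other. The 75th percentile ranged from 1370 to 2767 intensity units, and 73.8% to 84.1% of probes were well above background, with both highest values in Control arrays 1 and 2. The arrays were scanned on 3 dates. Replicates 1 and 2 of both groups belonged to scan date 1, replicate 3 of both to scan date 2 and replicate 4 of both to scan date 3. Of the 5 slides, only that of scan date 3 held both groups, so on scan dates 1 and 2 the group and the slide cannot be told apart. All 6 leaf photosystem genes in the marker list, among them LHCB3 and PSAO, were well above background on all 8 arrays, and all 6 differences were negative (-1.80 to -0.30). Both LHCB3 probes, PSAO and PsbP were tabulated by the study from these arrays, so their direction is not independent evidence. For the others, LHCA5 and PSB27, the limma p was 0.191 and 0.262.

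The labels were checked with VviNAC33 (VIT_19s0027g00230), whose level was 1.15, 0.59, -0.12 and -1.13 on OXNAC33 arrays 1 to 4, against 0.14, -0.75, -1.14 and -1.37 on Control arrays 1 to 4. The arrays labelled OXNAC33 replicates 3 and 4 lay within the range of the Control arrays, and OXNAC33 4 lay above Control arrays 3 and 4 alone. The mean difference was 0.90 (SE 0.52, 95% interval -0.29 to 2.09, limma p = 0.120, adjusted p = 0.664, exact permutation p = 0.200). With scan date as a block the adjusted p was 0.280. Every direction below rests on the labels as given.

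Most stilbene synthase members were higher in OXNAC33 than in Control leaves on average, and none passed the adjustment over all probes. Of the 49 members, 46 reached a signal well above background on 4 or more arrays and were tested, 38 of chromosome 16 and 8 of chromosome 10. The difference of means was above 0 for 44 of the 46, where 54.7% of all 26579 tested probes were above 0. The median difference was 1.18 over the members (1.22 in the chromosome 16 run and 0.77 in the chromosome 10 run), 0.04 over all probes and 0.04 over 135 tested probes of the same 2 identifier series outside the runs. A difference of at least 1.5 fold upward, with no test, was seen for 38 of 46 members and for 6.57% of all probes.

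The spread between plants was close in size to these differences. At an adjusted p under 0.05 limma called 0 members, as it called 0 of all probes, and the lowest adjusted p of a member was 0.633. At an unadjusted p under 0.05, 2 members were called higher and 0 lower (4.35% of the members, where 3.97% of all probes were called higher and 3.82% lower). In 0 of the 46 members were all OXNAC33 arrays above all Control arrays, where 2.34% of all probes were. The within-group SD had a median of 1.01 over the members and 0.385 over all probes, and 46 of 46 members were above the median of all probes. In bulk leaf RNA, a different number of expressing cells and a different amount of transcript per cell cannot be told apart.

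The members called at the unadjusted threshold were VvSTS21 and VvSTS43. VvSTS21 (VIT_16s0100g00910) had levels of 2.35, 2.02, 0.20 and 2.45 on OXNAC33 arrays 1 to 4, against 1.29, -0.44, -0.15 and -0.27 on Control arrays 1 to 4. OXNAC33 arrays 1, 2 and 4 lay above all Control arrays, and OXNAC33 3 lay below Control 1. Its mean was 1.76 ± 1.05 in OXNAC33 and 0.11 ± 0.80 in Control (SD, n = 4 each), a difference of 1.65 or 3.13 fold (SE 0.57, limma p = 0.0200, adjusted p = 0.633, exact permutation p = 0.0571). All exact p-values are two-sided, and 4 against 4 arrays cannot give less than 0.0286.

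VvSTS43 (VIT_16s0100g01150) had levels of -0.11, -0.37, -2.54 and -0.24 in OXNAC33, against -0.91, -2.41, -2.88 and -3.20 in Control. The same 3 OXNAC33 arrays lay above every Control array, and OXNAC33 3 fell between Control arrays 2 and 3. The means were -0.82 ± 1.16 in OXNAC33 and -2.35 ± 1.01 in Control (SD, n = 4 each), and the difference was 1.54 or 2.90 fold (SE 0.66, limma p = 0.0485, adjusted p = 0.633, exact permutation p = 0.0857).

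The next members, by size of the difference, have no study name. VIT_16s0100g01070 had the largest difference of all members, with levels of 3.27, 2.19, 0.23 and 3.22 in OXNAC33, against 2.28, 0.27, -0.43 and -0.39 in Control. Control 1 stood above OXNAC33 arrays 2 and 3 for this gene, so the groups overlapped. The difference was 1.80 or 3.47 fold (SE 0.82, 95% interval -0.08 to 3.67, adjusted p = 0.633). VIT_16s0100g01200, the last gene of the run, read 3.57, 2.45, 0.71 and 3.27 in OXNAC33, against 2.56, 0.62, -0.08 and -0.06 in Control. Here too Control 1 exceeded OXNAC33 arrays 2 and 3, and the difference was 1.74 (SE 0.77, adjusted p = 0.633).

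VIT_16s0100g00770 gave -1.37, -1.87, -4.38 and -1.92 in OXNAC33, against -2.02, -4.02, -5.17 and -5.17 in Control. OXNAC33 arrays 1, 2 and 4 exceeded all Control arrays, and OXNAC33 3 lay among the Control values. The difference was 1.71 (SE 0.86, adjusted p = 0.645). VIT_16s0100g01110 gave 0.35, -0.41, -2.47 and 0.03 in OXNAC33, against -0.09, -2.10, -3.29 and -3.10 in Control. Control 1 lay between OXNAC33 arrays 4 and 2, and the difference was 1.52 (SE 0.83, adjusted p = 0.653).

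**Figure D1:**
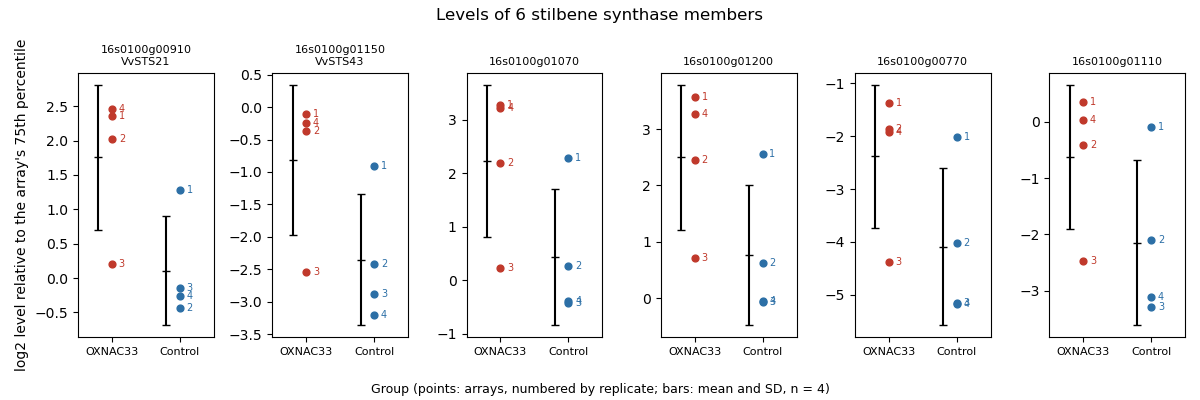
Log2 level (75th percentile of each array set to 0) of 6 members of the chromosome 16 run, for OXNAC33 (left, red) and Control (right, blue). Points are single arrays numbered by replicate and bars are the mean and SD of 4 arrays. In all 6 panels OXNAC33 3 is the lowest OXNAC33 array and Control 1 the highest Control array.

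The same arrays were high in nearly every member. Relative to each member's own mean over the 8 arrays, the median of the 46 members was 1.43, 1.04, -0.86 and 0.51 on OXNAC33 arrays 1 to 4, against 0.72, -0.84, -1.26 and -1.05 on Control arrays 1 to 4. OXNAC33 3 was thus among the low arrays and Control 1 among the high ones. The 4 highest arrays were OXNAC33 1, 2 and 4 and Control 1 for 37 of 46 members. Control 1 was the highest Control array in 43 members, and it exceeded OXNAC33 3 in 46 and OXNAC33 4 in 31. OXNAC33 3 was the lowest OXNAC33 array in 43 members. Both OXNAC33 1 and OXNAC33 2 exceeded every Control array in 35 members. The same orders were not counted over all probes, so these counts describe the members and have no share to stand beside.

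**Figure D2:**
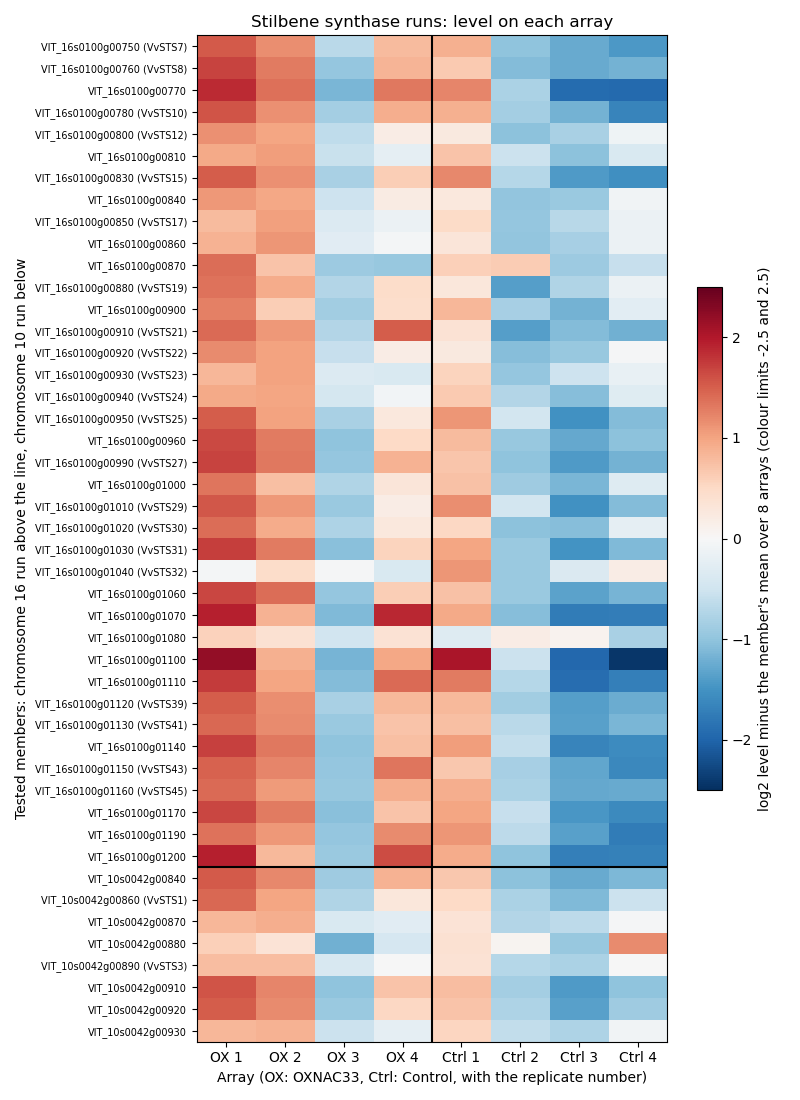
Heat map of the 46 tested members (rows, chromosome 16 run above the line and chromosome 10 run below) on the 4 OXNAC33 arrays (left) and the 4 Control arrays (right). Colour gives the log2 level minus the mean of the same member over 8 arrays. OXNAC33 1, OXNAC33 2 and Control 1 are red in nearly all rows, OXNAC33 4 is red in most, and OXNAC33 3 and Control arrays 2 to 4 are mostly blue.

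Across the 8 arrays, the 46 members formed 1035 pairs with a median Pearson correlation of 0.91 (quartiles 0.80 and 0.97), and 0.89 after the group means were removed. For the 135 tested probes outside the runs the median was 0.003. These values describe 8 arrays and are given with no test. The 2 runs were alike in this, with a median of 0.91 in the chromosome 16 run and 0.91 in the chromosome 10 run. The member closest to the median of the others was VvSTS31 (VIT_16s0100g01030, r = 0.999), and the least alike were VIT_10s0042g00880 (r = 0.35), VvSTS32 (VIT_16s0100g01040, r = 0.45), VIT_16s0100g01080 (r = 0.60) and VIT_16s0100g00870 (r = 0.67). All of these but VvSTS31 and VvSTS32 had low levels. VIT_10s0042g00880 lay from -6.39 to -4.01, VIT_16s0100g01080 from -7.06 to -5.67 (well above background on 7 arrays) and VIT_16s0100g00870 from -5.40 to -3.05. The lowest level well above background was -7.97 to -6.65, by array. Tandem copies are similar in sequence, and a probe may also bind transcripts of a neighbouring copy. How far that holds was not tested, and the 46 probes are not 46 separate measurements.

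Along the chromosome 16 run, 37 of 38 tested members had a difference above 0. The first 12 tested members, VIT_16s0100g00750 (VvSTS7) to VIT_16s0100g00880 (VvSTS19), had a median difference of 0.94, the next 12, up to VvSTS31, of 0.93, and the last 14, up to VIT_16s0100g01200, of 1.35. These stretches were set after the values were seen and carry no test. The pair nearest 0 were VvSTS32 and VIT_16s0100g00870. VvSTS32 had levels of -0.56, -0.05, -0.55 and -0.90 in OXNAC33, against 0.59, -1.44, -0.87 and -0.33 in Control, and a difference of -0.002 (95% interval -0.95 to 0.95, adjusted p = 0.999). For VIT_16s0100g00870 the difference was 0.13 (95% interval -1.28 to 1.55, adjusted p = 0.962). The interval of VIT_16s0100g00870 holds the median of the run, so a difference of that size could not be told from none, and the interval of VvSTS32 ends below that median. VIT_16s0100g00970 was not well above background on any array.

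The other named stilbene synthases of chromosome 16 lay between these extremes, all with differences above 0 and adjusted p-values from 0.633 upward. At the start of the run, VvSTS7 had a difference of 1.41 (SE 0.63), VvSTS8 of 1.44 (SE 0.65) and VvSTS10 of 1.39 (SE 0.67). VvSTS12, VvSTS17, VvSTS22, VvSTS23 and VvSTS24 had 0.85, 0.67, 0.90, 0.55 and 0.72 (SE 0.41 to 0.46), which were among the smaller differences of the run. VvSTS15, VvSTS19, VvSTS25, VvSTS27, VvSTS29, VvSTS30 and VvSTS31 had 1.24, 1.0, 0.98, 1.46, 0.96, 0.90 and 1.27. Toward the end, VvSTS39, VvSTS41 and VvSTS45 had 1.34, 1.21 and 1.21. VIT_16s0100g01100 varied most between arrays, with levels of 2.02, 0.70, -1.33 and 0.79 in OXNAC33, against 1.87, -0.71, -2.14 and -2.62 in Control. OXNAC33 1 and Control 1 were nearly level for this gene, and its difference of 1.44 had an SE of 1.05 (adjusted p = 0.713).

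In the chromosome 10 run, 4 of 8 tested members reached 1.5 fold, and 0 passed an unadjusted p under 0.05. VIT_10s0042g00840 had levels of 2.86, 2.52, 0.43 and 2.20 in OXNAC33, against 1.99, 0.30, 0.07 and 0.20 in Control, with the order of arrays seen in the other run. Its difference was 1.37 (SE 0.61, limma p = 0.0547, adjusted p = 0.633, exact permutation p = 0.0571). The differences of VIT_10s0042g00910 (1.25, SE 0.65, adjusted p = 0.649), VIT_10s0042g00920 (1.15, SE 0.61, adjusted p = 0.651) and VvSTS1 by VIT_10s0042g00860 (0.97, SE 0.52, adjusted p = 0.651) came next. VvSTS3 (VIT_10s0042g00890) had 0.57 (SE 0.36, adjusted p = 0.686), VIT_10s0042g00870 had 0.53 (SE 0.39, adjusted p = 0.714) and VIT_10s0042g00930 had 0.47 (SE 0.42, adjusted p = 0.755). VIT_10s0042g00880, at low levels of -6.39 to -4.01, had the lowest difference of all members, -0.34 (95% interval -1.54 to 0.85, adjusted p = 0.867).

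The other probe of VvSTS1, VIT_10s0042g00850, was well above background on 2 OXNAC33 arrays and 1 Control array and was not tested. VIT_10s0042g00900 was not well above background on any array.

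**Figure D3:**
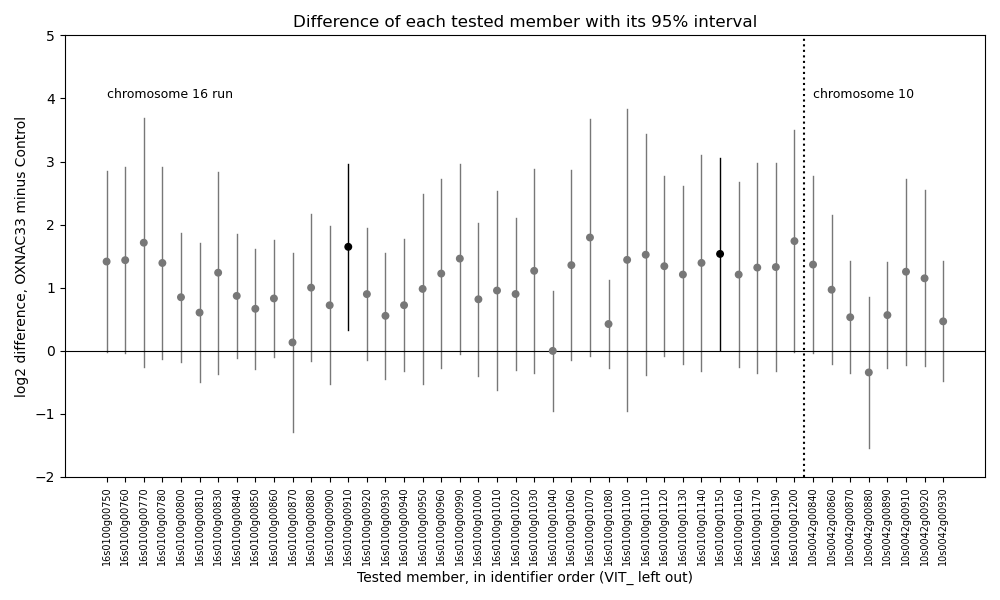
Log2 difference, OXNAC33 minus Control, of each tested member in identifier order, with its 95% interval from limma. Black marks the 2 members with an unadjusted p under 0.05, and 44 of 46 points lie above 0 while 44 intervals hold 0.

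The size of the difference varied between scan dates and between array pairs of the same date, although its direction held for most members. On scan date 1, with 2 arrays per group, all 46 members were higher in OXNAC33, with a median difference of 1.31. Within that date the median was 0.68 between the arrays of replicate 1 and 1.92 between those of replicate 2. On scan date 2, with 1 array per group, 44 were higher and the median was 0.39. On scan date 3, also with 1 array per group, 38 were higher, the median was 1.48 and the members ranged from -1.60 to 3.61. Of all 26579 tested probes, 14693, 13706 and 13033 were higher in OXNAC33 on scan dates 1, 2 and 3. Their median differences were 0.07, 0.02 and -0.01. A total of 37 members were higher in OXNAC33 on all 3 dates, where 15.3% of all probes were. In all 4 pairs of arrays with the same replicate number, 37 members were higher, where 11.8% of all probes were.

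Scan date 3 parted the members more than the others. Of the chromosome 16 members, 17 exceeded a difference of 2 on that date, among them VvSTS21 (2.72), VvSTS43 (2.96) and VIT_16s0100g01070 (3.61). How many of all probes exceeded 2 there was not counted, and their differences ran from -7.01 to 7.85. On the same date VvSTS17 (VIT_16s0100g00850, -0.001), VvSTS23 (VIT_16s0100g00930, -0.20), VvSTS32 (-0.56) and VIT_16s0100g00870 (-0.38) were at or below 0. In the chromosome 10 run 4 of 8 were below 0, with VIT_10s0042g00880 lowest at -1.60. The median of the last 14 members of the chromosome 16 run was 2.32 there, against 0.45 for the first 12 and 0.99 for the next 12. These are differences between 2 arrays and have no replicate check, and one of the arrays is that labelled OXNAC33 replicate 4.

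**Figure D4:**
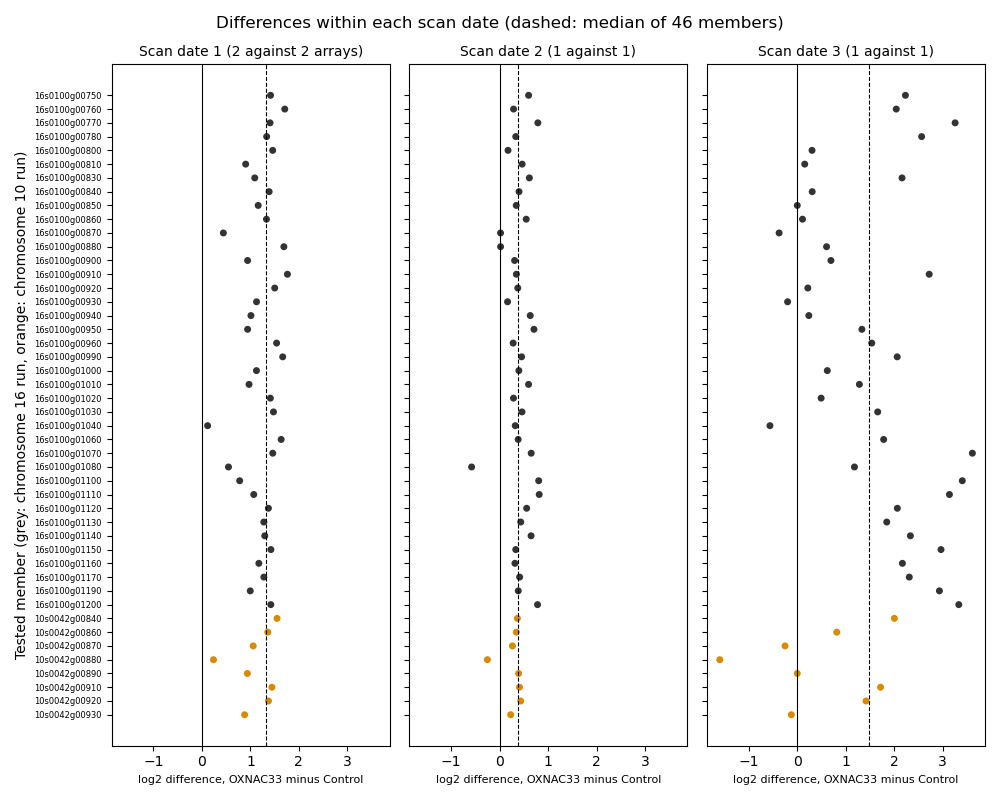
Log2 difference, OXNAC33 minus Control, of the 46 tested members (rows in identifier order, grey for chromosome 16 and orange for chromosome 10) on each of 3 scan dates. The dashed line is the median of the members, at 1.31, 0.39 and 1.48, and the spread among members is widest on scan date 3.

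When the date was a block in the limma fit, the difference of each member was unchanged and its error smaller, with a median SE of 0.407, against 0.617 without the block. At an unadjusted p under 0.05, 27 of 46 members were then called higher (7.53% of all probes) and 0 lower (7.53% of all probes). At an adjusted p under 0.05, 0 members were called, the lowest adjusted p being 0.271. Left-out arrays moved the count of 27. It was 3 without OXNAC33 4 or without Control 4, where 9.31% of all probes were called higher. Both give the same fit, because the array left alone on scan date 3 then adds nothing to the difference. The count was 10 without OXNAC33 1 (3.30% of all probes) and 34 without Control 1 (4.43% of all probes). With the replicate number as a block, 35 of 46 members were called higher at the unadjusted threshold (5.77% of all probes) and 0 lower (6.67% of all probes), and 0 passed the adjustment (lowest adjusted p 0.275, with 2 calls or 0.00752% among all probes). VvSTS21 had an adjusted p of 0.272 with the date as a block and of 0.303 with the replicate as a block. Permuting arrays within dates gave it an exact p of 0.0833, the smallest that this design allows.

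The fit without a block also hung on single arrays. Without OXNAC33 3, 33 members were called higher at the unadjusted threshold (6.24% of all probes), and without Control 1, 34 were (3.10% of all probes). The count was 0 without OXNAC33 1, OXNAC33 4, Control 2 or Control 4, and 1 without OXNAC33 2 or Control 3, where 1.66% to 5.46% of all probes were called higher. The median difference of the members stayed between 0.86 and 1.68 over these fits.

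The regulators VvWRKY03 and VvMyb15, transcription factors known to act on stilbene synthase promoters in grapevine, had an array order like that of the members. VvWRKY03 (VIT_01s0010g03930) had levels of 2.67, 1.70, -0.004 and 1.03 in OXNAC33, against 1.10, -0.82, -1.01 and -0.76 in Control. OXNAC33 3 was again the lowest array of its group and Control 1 the highest of its own. The difference was 1.72 (SE 0.65, limma p = 0.0280, adjusted p = 0.633, exact permutation p = 0.0857). VvMyb15 (VIT_05s0049g01020) had levels of 3.25, 1.66, 0.18 and 0.94 in OXNAC33, against 1.47, 0.48, -0.89 and -0.36 in Control. Its difference was 1.33 (SE 0.72, limma p = 0.0993, adjusted p = 0.653, exact permutation p = 0.171). The order was not particular to the regulators. The cinnamoyl-CoA reductase VIT_02s0012g01570 and the PR10 probe VIT_05s0077g01690, described below, also had OXNAC33 1, 2 and 4 and Control 1 as their highest arrays. How many of all probes had this order was not counted. VviNAC33 differed from this order in that its lowest OXNAC33 array was OXNAC33 4 rather than OXNAC33 3.

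**Figure D5:**
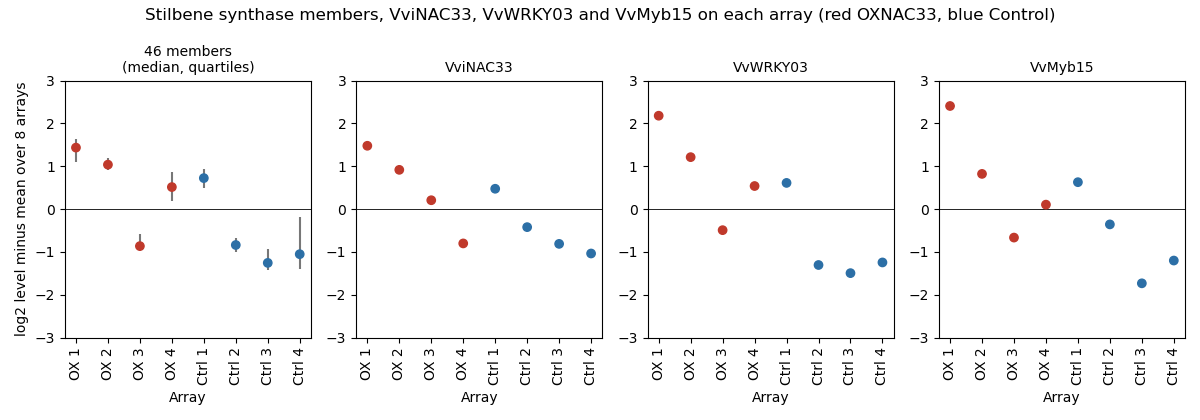
Log2 level minus the mean over 8 arrays, for the median of the 46 members (bars, quartiles of the members) and for VviNAC33, VvWRKY03 and VvMyb15, with OXNAC33 (OX, red) left of Control (Ctrl, blue). Control 1 is the highest Control array in all 4 panels, and OXNAC33 1 the highest of all arrays.

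The listed enzymes around stilbene synthase, in the phenylpropanoid pathway and its other branches, had differences in both directions, with 4 of 12 tested above 0 and a median of -0.22. Of the 17 genes in the pathway list, which holds these regulators, 14 were tested, and their median difference was -0.13 (all probes 0.04). At an unadjusted p under 0.05, 1 was called higher (VvWRKY03, where 3.97% of all probes were higher) and 1 lower (3.82% of all probes), and 0 passed the adjustment. The lower one was chalcone isomerase (VIT_07s0151g01060), the flavonoid enzyme after chalcone synthase, with levels of -2.41, -2.01, -1.71 and -1.85 in OXNAC33, against -1.34, -1.56, -1.56 and -1.47 in Control. The groups did not overlap (1.75% of all probes did so in this direction), and the difference was -0.51 (SE 0.18, limma p = 0.0228, adjusted p = 0.633, exact permutation p = 0.0286). This gene was tabulated by the study from these arrays and is not independent evidence.

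Chalcone synthase, which competes with stilbene synthase for substrate, had differences of -1.04 for CHS2 (VIT_14s0068g00920, SE 0.72, adjusted p = 0.705) and -0.67 for CHS3 (VIT_05s0136g00260, SE 0.65, adjusted p = 0.775). Flavonol synthase, further along the flavonoid branch, had differences of 0.73 (VIT_10s0003g02430, SE 0.33, adjusted p = 0.633) and 0.46 (VIT_18s0001g03430, SE 0.32, adjusted p = 0.708). Phenylalanine ammonia-lyase, the entry enzyme of the pathway, was measured by VIT_06s0004g02620 alone and had a difference of -0.76 (SE 0.56, adjusted p = 0.714). The list held no other gene of this enzyme and no cinnamate 4-hydroxylase. The 3 tested 4-coumarate-CoA ligases, which make the starter of stilbene synthase, had 0.46, -0.12 and -0.29. Cinnamoyl-CoA reductase leads to lignin, and its 3 tested genes had 0.67, -0.15 and -0.46. Another, VIT_01s0011g03480, was well above background on 3 OXNAC33 arrays and 0 Control arrays. Its levels were -2.16, -5.01, -7.24 and -4.68 in OXNAC33 and between -8.95 and -7.89 in Control. Each Control array was counted at its own level or its lowest level well above background, whichever was higher. The OXNAC33 mean was then 5.60 fold higher. This fold is not a strict lower bound, because OXNAC33 3 lay below its own lowest level well above background (-7.17). The gene had too few arrays well above background to be tested.

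Taken as a median, the defence genes of the pathogenesis-related families PR10 and PR1 had a different array order. Of 8 in the list, 6 were tested, 0 passed an unadjusted p under 0.05, and the median difference was 0.70. The 5 PR10 probes had differences of 0.46 to 0.84, and the 1 tested PR1 probe (VIT_03s0088g00710) had -1.07 (SE 0.80, adjusted p = 0.716). On scan date 3, 4 of the PR10 probes were lower in OXNAC33, the date on which the stilbene synthase median was highest. The other PR10 probe, VIT_05s0077g01690, was higher in OXNAC33 on that date (0.75). Its highest arrays were OXNAC33 1, 2 and 4 and Control 1, as for most members. The median deviation of the 6 probes was 0.76, 0.74, 0.19 and -0.76 on OXNAC33 arrays 1 to 4, against 0.29, -0.99, -0.54 and 0.04 on Control arrays 1 to 4, so OXNAC33 4 and Control 4 ranked otherwise than for the members. Whether the level of defence genes had a part in the result was not tested.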

How the data were processed

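Arrays were 1-colour Agilent arrays. Per the file headers the authors extracted them with Agilent Feature Extraction 10.5.1.1, and the deposited processed intensity is linear, background-subtracted and not scaled between arrays. The authors also deposited an intensity table of 24631 probes (71.7%, 45 of the 49 members), equal to that value times 1 factor per array. Groups and replicate numbers came from the titles. Each array was scaled to its 75th percentile over probes that were neither controls nor outlying, and 140 outlying spots were left out. Probes well above background on at least 4 of 8 arrays were tested by a linear model of limma 3.58.1 (R 4.3.3) that held group alone, and two-sided p-values were adjusted by Benjamini-Hochberg over 26579 probes. The replicate numbers were taken to pair the arrays, because the correlation of deviations from group means was 0.490, 0.253, 0.496 and 0.102 for replicates 1 to 4, all above 0.1. Correlations between arrays with unlike numbers were not computed, so these values cannot show that the numbers pair plants. The arrays of a pair are separate plants, and pairs 3 and 4 are also scan dates 2 and 3. The fit was tested on simulated data. Figures were drawn with matplotlib 3.10.9 in Python 3.11.15.

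The members and gene lists were chosen with earlier results of these data known. Members with per-array values were those past an adjusted p under 0.05, then an unadjusted p under 0.05 with 1.5 fold, filled to 6 by size of the difference; all chromosome 10 members and the 2 chromosome 16 members nearest 0 were also named. The files hold spot medians and local background medians but no mean signal, so the normexp alternative (offset 50) used the medians. Names are those the study pairs with VIT identifiers. Sequences and coordinates were not used here.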

Additional observations from a re-analysis of the deposited data

Results flagged for a closer look

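Among 34 groups of 4 arrays (17 named genes in OXNAC33 and in Control), 2 had 1 array far from the others, where chance gives about 1.7. For VvSTS43 (VIT_16s0100g01150) in OXNAC33, replicate 3 was at -2.54 and the other arrays between -0.37 and -0.11, a gap of 0.891 of the range of the group. For VIT_10s0042g00840 in Control, replicate 1 was at 1.99 and the other arrays between 0.07 and 0.30, a gap of 0.880 of the range. Control 1 and OXNAC33 3 are the arrays on which the members as a whole departed most from their groups.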

How the results depend on the processing

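The count of members higher at an unadjusted p under 0.05, 2 in the fit without a block, was, with the share of all probes called higher in brackets, 1 with the 75th percentile over probes well above background on all arrays (3.68%), 1 with the methods' t-test (4.50%), 6 with normexp (1.60%), 4 with the filter on all 8 arrays (4.29%), 17 with slide as a random block (4.16%), 27 with scan date as a block (7.53%), 35 with the replicate block (5.77%) and 41 with array weights (14.6%), where OXNAC33 2 had a weight of 5.10. Leaving out 1 array gave 0 to 34 (1.66% to 6.24%), and 3 to 34 with scan date as a block (3.30% to 10.1%, chosen after seeing the data). At an adjusted p under 0.05, 0 members were called in all 20 alternatives, and 0 were lower at either threshold. The median difference ranged from 0.86 to 1.68 over both runs, 0.92 to 1.72 for chromosome 16 and 0.53 to 1.19 for chromosome 10, and the VviNAC33 difference from 0.56 to 1.32. The sign turned for 3 named members: VvSTS32 was 0.28 with array weights and -0.31 to 0.37 without 1 array, VIT_16s0100g00870 was -0.084 with normexp, -0.11 with slide as a random block and -0.31 to 0.47 without 1 array, and VIT_10s0042g00880 was 0.072 with array weights. The cause was not tested. Other members were not followed singly over the alternatives. Of 46 tested members, 42 were above 0 with normexp and 46 with array weights, against 44 in the fit without a block. The replicate block changed no adjusted call of a member, while over all probes it gave 2, against 0 without a block. With 4 arrays per group, the number of arrays limits the precision.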
